A study of Homo sapiens with 16 samples.

Results

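The genes described here are 9 genes known for their induction by low oxygen: HIF1A, EGLN3, VEGFA, ADM, CA9, BNIP3, NDRG1, P4HA1 and P4HA2. Their rows were taken by symbol, and the genes were chosen with earlier results of these data known. Each array row with such a symbol was kept separate and followed through a time series in MCF10A cells, a line of nontransformed human breast epithelial cells. Of 18190 symbols and 20589 rows, 8 genes with 10 rows carried a member's symbol as written. VEGFA was not among the symbols, but 1 row (ILMN_5181) carried VEGF, an older name that the RefSeq gene table gives as a synonym of VEGFA alone, and it was taken as VEGFA. This makes 11 rows for 9 genes, with a pair of rows each for HIF1A (ILMN_16330 and ILMN_9514) and P4HA1 (ILMN_8003 and ILMN_13622).

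The cells were grown in medium with insulin and EGF and treated with CP724,714, a small molecule inhibitor of the HER2 kinase, at 1 µM. RNA was taken from parallel cultures every 3 hours from 0 h to 45 h and hybridized to Illumina human Ref8v2 arrays, 1 for each of the 16 time points, and the comparisons ask how expression followed time under HER2 inhibition. The 0 h array is the only one from untreated cells. The methods state that the medium was renewed when the inhibitor was added, and no later untreated culture was analysed here, so the inhibitor, fresh medium and time in culture cannot be told apart. Oxygen was not varied. No time point was replicated. For the tests the arrays were placed in 4 consecutive windows of 4 time points (0-9 h, 12-21 h, 24-33 h and 36-45 h), so p-values measure change against the spread among neighbouring time points and not among repeated cultures. Changes are log2 differences after normalization. The paragraphs on single members give the SE of the limma fit for the main analysis. A change was called at a Benjamini-Hochberg adjusted p under 0.05 over all 11957 tested rows.

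The arrays were alike in overall signal. Between 50.1% and 52.9% of rows on each array were above background at a detection p under 0.05, and the median intensity lay between 210.4 and 253.9. The mean level of the negative controls was 188 to 199 on the 8 arrays of 0 h to 21 h and 166 to 185 on the 8 arrays of 24 h to 45 h. All 5 epithelial markers and 5 of 8 basal mammary markers were above background on every array, with KRT14 on 1, LAMB3 on 4 and TP63 on 10 of the 16 arrays. None of 5 fibroblast markers was above background on any array. Of the endothelial markers CDH5 and VWF were detected on no array, TEK on 2 and PECAM1 on 15. Of the leukocyte markers CD3E was detected on no array, PTPRC on 5 and CD14 on 12. The part of such cells in the results was not tested.

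Cells sense oxygen through the hypoxia-inducible factors. When oxygen is plentiful, prolyl hydroxylases of the EGLN family mark the HIF alpha subunits for destruction by the VHL ubiquitin ligase. When it is scarce, the alpha subunit joins ARNT, binds short DNA elements with the core ACGTG or GCGTG, and raises genes for blood vessel growth, glucose use, pH control, mitophagy and collagen modification. HIF1A is regulated mostly at the protein level, which an expression array does not measure. Growth factor signals through PI3K and mTOR also raise HIF1A translation in cells with normal oxygen.

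The proximal promoters of 3 of the members that hold the letters that the factor reads are shown. They are CA9 and ADM, which passed the test over time (ADM only with its 0 h array), and BNIP3, which did not. A link between a match and a time course was not tested. Each sequence runs from 250 bases before to 50 bases after a RefSeq transcript start (GRCh38.p14), 5′ to 3′ on the strand of the gene, with every ACGTG or GCGTG on either strand in capitals. A table of such windows held 7 of the 9 genes, without VEGFA and NDRG1.

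CA9, chr9:35673678-35673977, plus strand: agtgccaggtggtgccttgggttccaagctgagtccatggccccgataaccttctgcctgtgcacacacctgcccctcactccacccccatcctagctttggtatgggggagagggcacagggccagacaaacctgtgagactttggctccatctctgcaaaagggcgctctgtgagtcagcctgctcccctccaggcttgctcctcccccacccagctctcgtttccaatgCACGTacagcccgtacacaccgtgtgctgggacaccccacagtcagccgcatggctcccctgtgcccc
ADM, chr11:10304823-10305122, plus strand: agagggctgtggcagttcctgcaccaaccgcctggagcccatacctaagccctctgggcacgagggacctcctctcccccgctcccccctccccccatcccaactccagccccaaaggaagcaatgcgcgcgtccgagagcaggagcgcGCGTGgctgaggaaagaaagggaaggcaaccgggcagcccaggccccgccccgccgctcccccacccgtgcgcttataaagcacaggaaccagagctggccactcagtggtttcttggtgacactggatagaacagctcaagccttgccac
BNIP3, chr10:131981874-131982173, minus strand: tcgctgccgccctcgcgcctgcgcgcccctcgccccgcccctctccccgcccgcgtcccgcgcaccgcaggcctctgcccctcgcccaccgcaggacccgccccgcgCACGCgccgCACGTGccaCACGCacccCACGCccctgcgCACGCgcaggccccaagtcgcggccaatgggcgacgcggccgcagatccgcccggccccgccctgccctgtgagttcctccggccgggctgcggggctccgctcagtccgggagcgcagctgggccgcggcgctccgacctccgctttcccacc

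The CA9 window held 1 match, to ACGTG read on the strand opposite the gene, which begins 18 bases before the start. The ADM window held 1 match, GCGTG, which begins 101 bases before the start. The BNIP3 window held 6 matches between 143 and 104 bases before the start, of which a pair overlaps on opposite strands in CACGTG. Of all 35116 windows of this length, 48.4% held at least 1 match to either motif, 21.4% held ACGTG, 36.5% held GCGTG, and 0.923% held 6 or more matches. P4HA1 had 1 match and HIF1A had 1 in 1 of its 2 windows, and P4HA2 and EGLN3 had none. A match is a description of letters in the window.

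Over the whole course, 7 of the 9 tested member rows depended on time, in a spline test that asks for any smooth change over the 45 h. They were both HIF1A rows, VEGFA, ADM, CA9, NDRG1 and P4HA2, while BNIP3 (adjusted p = 0.24) and P4HA1 (adjusted p = 0.1) did not pass. Over all tested rows 54.6% passed the same test. Single arrays decided some of these calls: without 1 array, HIF1A ILMN_16330 did not pass at 3 h (adjusted p = 0.06) or 45 h (adjusted p = 0.12) left out, NDRG1 at 42 h (adjusted p = 0.059), and P4HA2 at 39 h (adjusted p = 0.059) or 42 h (adjusted p = 0.088). HIF1A ILMN_9514 did not pass under median scaling (adjusted p = 0.065). The members did not share a direction. VEGFA fell and later rose, and CA9 rose and later fell. NDRG1 rose early, fell back near its 0 h level and rose again late. HIF1A fell on 1 of its rows, P4HA2 rose late, and ADM was high on the 0 h array alone. EGLN3 (ILMN_27171) and the P4HA1 row ILMN_13622 were above background on none of 16 arrays and were not tested. In a bulk culture, fewer cells of a type and less RNA per cell cannot be told apart.

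**Figure D1:**
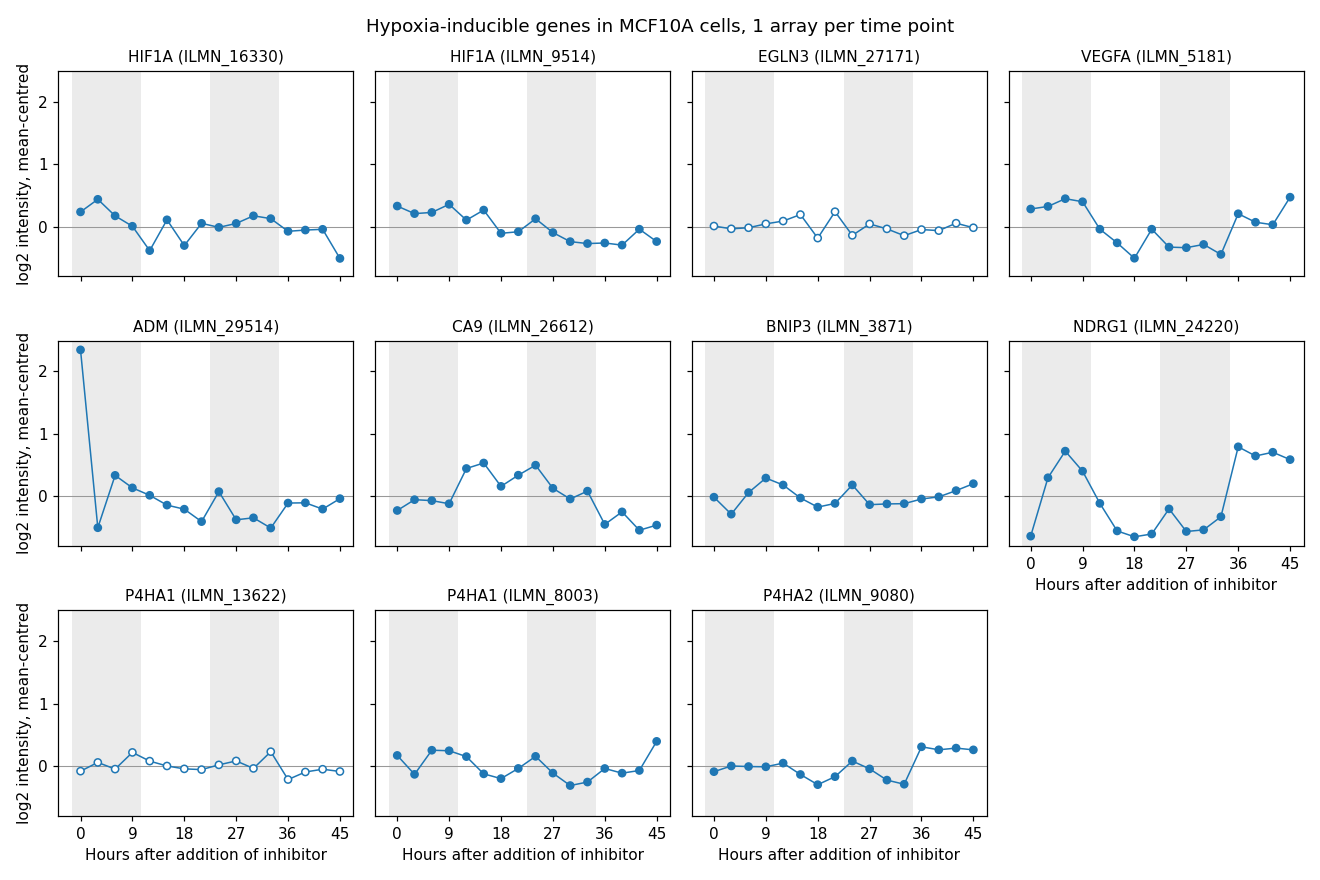
Mean-centred log2 intensity (vertical axis) against hours after addition of the inhibitor for the 11 rows of the 9 genes, with 1 array per point, filled where the detection p was under 0.05 and open where it was not. Shading separates the 4 windows. ADM stood 7.19-fold higher at 0 h than at 3 h, and NDRG1 had an early peak and a late plateau. CA9 was highest at 15 h and lowest at 42 h, and EGLN3 and ILMN_13622 stayed at background.

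HIF1A encodes the oxygen-regulated alpha subunit of the factor, and it was measured by a pair of rows. Row ILMN_9514 gave log2 intensities of 8.02, 7.90, 7.92 and 8.05 at 0 h to 9 h, and 7.43, 7.39, 7.65 and 7.45 at 36 h to 45 h. The late values all lay below the early ones. The change from 0-9 h to 36-45 h was -0.49 (SE 0.12, adjusted p = 0.0051), a 1.4-fold fall. Row ILMN_16330 gave 7.94, 8.14, 7.88 and 7.71 at 0 h to 9 h and 7.63, 7.65, 7.66 and 7.19 at 36 h to 45 h. These groups did not overlap either, and the change of -0.38 (SE 0.14) narrowly missed the threshold at an adjusted p of 0.051. In between, the rows differed. At 24-33 h the mean was 7.79 ± 0.08 (SD, 4 time points) for ILMN_16330 and 7.57 ± 0.18 for ILMN_9514, against 7.57 ± 0.25 and 7.73 ± 0.17 at 12-21 h. Their spline tests gave adjusted p = 0.023 and 0.0042. The raw intensities, 279.9 to 433.5 and 306.9 to 438.3, were low against negative controls of 166 to 199, and without background correction the highest over the lowest value fell from 1.93-fold to 1.41-fold for ILMN_16330 and from 1.57-fold to 1.27-fold for ILMN_9514. Leaving the step from 12-21 h to 24-33 h out of the contrast lost the call for ILMN_9514 (-0.32, adjusted p = 0.24). That contrast takes in all 4 window means, so its SE is larger by construction. The call was also lost when 42-45 h was set against 0-3 h (-0.41, adjusted p = 0.059).

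EGLN3 encodes a prolyl hydroxylase that acts on the HIF alpha subunits and is itself a HIF target. Its intensities ran from 170.7 to 216.6 over the 16 arrays, and its lowest detection p was 0.11. It was not above background at any time, which gives no course. The P4HA1 row ILMN_13622 was alike in this, at 163.1 to 222.3 with a lowest detection p of 0.13.

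VEGFA, the growth factor that drives new blood vessels, fell by the second window and was back up in the fourth. The log2 values were 7.65, 7.69, 7.81 and 7.76 at 0 h to 9 h, and 7.33, 7.11, 6.86 and 7.33 at 12 h to 21 h. All 4 values of the second window lay below all of the first. At 24 h to 33 h they were 7.04, 7.03, 7.08 and 6.92, and at 36 h to 45 h they were 7.57, 7.44, 7.40 and 7.84. The last window lay wholly above the third and overlapped the first. The fall from 0-9 h to 12-21 h was -0.57 (SE 0.13, adjusted p = 0.0027), a 1.49-fold decrease, and the rise from 24-33 h to 36-45 h was 0.54 (SE 0.13, adjusted p = 0.0027), a 1.46-fold increase. From the first to the last window the difference was -0.17 (SE 0.13, adjusted p = 0.34). The VEGFA row combines several probes in the file, and its raw intensities of 290.7 to 405.9 were also dim. Without background correction its highest over lowest value was 1.38-fold in place of 1.97-fold, and both changes were still called.

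ADM encodes adrenomedullin, a secreted peptide that widens vessels. Its raw intensity was 7947 on the untreated 0 h array and 1184 at 3 h, then 2101 at 6 h and 1891 at 9 h. All 15 arrays after 0 h lay between 1184 and 2101. The drop from 0 h to 3 h was 7.19-fold after normalization, and of 11957 tested rows 5, ADM included, fell at least as much over that interval. The 3 h value was followed by a 1.79-fold increase at 6 h, and at 45 h ADM was still 5.2-fold below 0 h. Without the 0 h array the highest over the lowest value was 1.79-fold in place of 7.21-fold. Since the high value is 1 array, the window tests could not separate it from the spread: 36-45 h against 0-9 h gave -0.69 (SE 0.38, adjusted p = 0.17) and 12-21 h against 0-9 h gave -0.76 (SE 0.38, adjusted p = 0.14). The spline test passed (adjusted p = 0.017), and did not without the 0 h array (adjusted p = 0.26) or under median scaling (adjusted p = 0.061). Whether a repeat of the 0 h culture would give the same level was not tested.

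**Figure D2:**
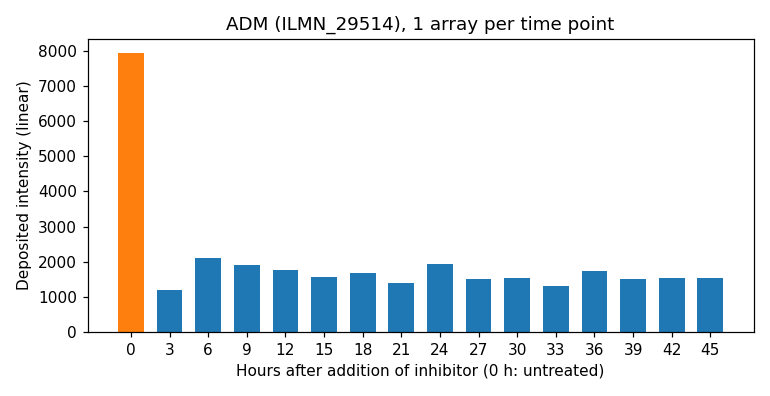
Deposited intensity of ADM (linear scale, bars from 0) on each of the 16 arrays against hours after addition of the inhibitor, with the untreated 0 h array in orange. The 0 h array reads 7947, and the 15 treated arrays read 1184 to 2101.

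CA9 encodes carbonic anhydrase IX, a cell surface enzyme that acidifies the outside of the cell and is among the most used markers of tumor hypoxia. It ran opposite to VEGFA and NDRG1 at both steps. The log2 values were 7.16, 7.33, 7.32 and 7.27 at 0 h to 9 h, and 7.83, 7.92, 7.54 and 7.72 at 12 h to 21 h. The second window lay wholly above the first. They were 7.88, 7.51, 7.34 and 7.47 at 24 h to 33 h, and 6.94, 7.14, 6.84 and 6.92 at 36 h to 45 h. Every late value was below every value of the other 3 windows, though narrowly for the first window (7.14 at 39 h against 7.16 at 0 h). The difference from 0-9 h to 36-45 h was -0.31 (SE 0.13, adjusted p = 0.077) and was not called. CA9 rose by 0.49 (SE 0.13, adjusted p = 0.0087) from 0-9 h to 12-21 h, a 1.4-fold increase, and fell by 0.59 (SE 0.13, adjusted p = 0.0014) from 24-33 h to 36-45 h, a 1.51-fold decrease. Its spline test gave the lowest adjusted p of the 9 tested rows, 0.00084. The raw intensities were 256.6 to 407.2, and without background correction the highest over the lowest value was 1.43-fold in place of 2.11-fold. Both changes were called under all 23 other settings tried, and so were those of VEGFA.

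BNIP3, a mitochondrial protein of cell death and mitophagy, passed neither the spline test nor any contrast, with a highest over lowest value of 1.49-fold (1.81-fold under median scaling). Its window means were 11.35 ± 0.24, 11.30 ± 0.15, 11.29 ± 0.15 and 11.40 ± 0.11 (SD, 4 time points each). The 4 windows overlapped. The difference from 0-9 h to 36-45 h was 0.05 (SE 0.11, adjusted p = 0.78). The largest difference tested was 0.33 (SE 0.12, adjusted p = 0.058) from 0-3 h to 6-9 h, when the values went from 11.32 and 11.05 to 11.40 and 11.63. It was called under median scaling (0.41, adjusted p = 0.029), without the 0 h array (0.46, adjusted p = 0.022) or the 6 h array (0.44, adjusted p = 0.031), and at 0.33 (adjusted p = 0.048) without the 24 h or the 27 h array.

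NDRG1, a stress-responsive protein raised by hypoxia and by differentiation signals, had the largest window changes among the called members. The log2 values were 10.84, 11.78, 12.20 and 11.88 at 0 h to 9 h, an early peak at 6 h. They fell to 11.37, 10.93, 10.83 and 10.88 at 12 h to 21 h and were 11.28, 10.92, 10.94 and 11.15 at 24 h to 33 h. At 36 h to 45 h they were 12.27, 12.13, 12.19 and 12.07, all above the third window and overlapping the first at its 6 h peak. The rise from 24-33 h to 36-45 h was 1.09 (SE 0.20, adjusted p = 0.00037), a 2.13-fold increase, with a 2.17-fold step between 33 h and 36 h. In raw intensity NDRG1 ran from 1843 at 0 h to 5166 at 36 h, far above the negative controls. The rise from 0-3 h to 6-9 h was 0.73 (SE 0.22, adjusted p = 0.021), and the fall from 0-9 h to 12-21 h was -0.68 (SE 0.20, adjusted p = 0.017). The second window overlapped the first at its 0 h value of 10.84. From 0-9 h to 36-45 h the difference was 0.49 (SE 0.20, adjusted p = 0.074) and was not called. The late rise was called under all 23 other settings. The fall was lost under median scaling (-0.49, adjusted p = 0.076) and without the 6 h or the 18 h array. The early rise was lost with no intensity trend in the prior variance (adjusted p = 0.057) and without the 0 h or the 6 h array, with a lowest value of 0.27.

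**Figure D3:**
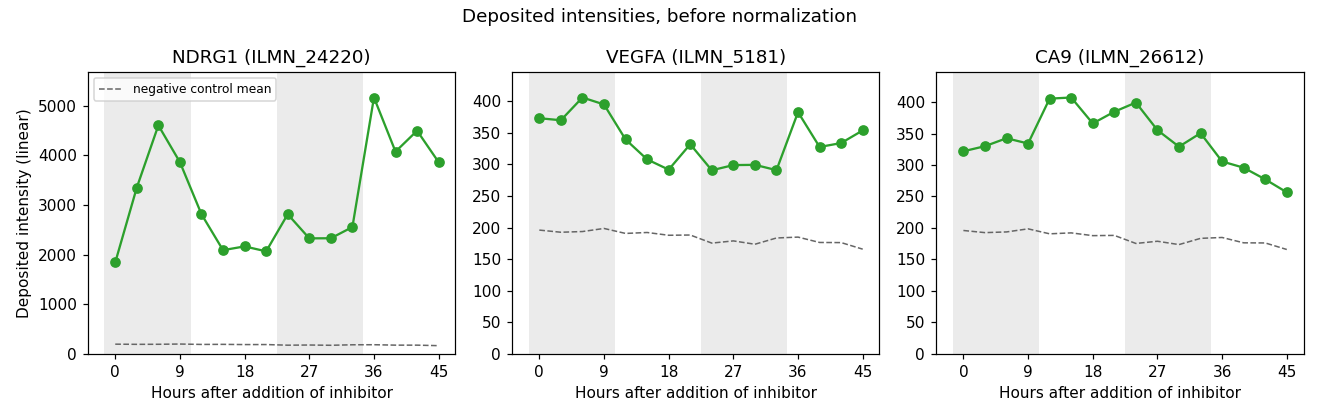
Deposited intensity (linear, before normalization) against hours after addition of the inhibitor for NDRG1, VEGFA and CA9, 1 array per point, with the mean of the negative controls dashed and the 4 windows separated by shading. NDRG1 peaked at 6 h and again from 36 h, VEGFA was lower in both middle windows, and CA9 ran from 407.2 at its highest to 256.6 at its lowest.

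P4HA1 and P4HA2 encode the catalytic subunits of the prolyl hydroxylase that stabilises collagen. P4HA2 gave 11.34, 11.43, 11.42 and 11.41 at 0 h to 9 h, and 11.51, 11.38, 11.20 and 11.14 at 24 h to 33 h. At 36 h to 45 h it gave 11.73, 11.69, 11.71 and 11.69, above all 12 earlier values. The rise was 0.40 (SE 0.08, adjusted p = 0.0011) from 24-33 h and 0.31 (SE 0.08, adjusted p = 0.0097) from 0-9 h, a 1.32-fold and a 1.24-fold increase. Under median scaling the first was 0.22 and not called (adjusted p = 0.07). The second was not called when the step from 12-21 h to 24-33 h was left out (0.29, adjusted p = 0.12). That contrast has a larger SE by construction. P4HA1 (ILMN_8003) had window means of 9.52 ± 0.18, 9.34 ± 0.15, 9.26 ± 0.21 and 9.43 ± 0.24, which overlapped, and passed no test. Its difference from 24-33 h to 36-45 h was 0.17 (SE 0.14, adjusted p = 0.34). Whether the change of P4HA2 differs from that of P4HA1 was not tested.

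Counted over the members, the steps between windows stood close to the array as a whole. From 0-9 h to 12-21 h 3 of 9 rows were called, 1 higher and 2 lower, against 29.5% of all tested rows (15.1% higher and 14.4% lower). From 12-21 h to 24-33 h none of the 9 was called by limma and none had an unadjusted p under 0.05 (the lowest was 0.13), against 0.0251% of all rows, 3 in number. From 24-33 h to 36-45 h 4 of 9 were called, 3 higher and 1 lower, against 38% (19.3% higher and 18.7% lower). From the first to the last window 2 of 9 were called, 1 each way, against 31.2% (16.2% higher and 15% lower). From 0-3 h to 6-9 h 1 of 9 was called, higher, against 24.7% in either direction and 13.2% higher. Median scaling shifted the split over all rows to 23.5% higher and 8.61% lower for 12-21 h, to 14.4% higher and 24.5% lower for 36-45 h against 24-33 h, and to 23.4% higher and 8.61% lower for 36-45 h against 0-9 h. A change of at least 1.7-fold from 0 h at any later time was seen for 3 of 9 rows, against 43.8% of all rows. They were ADM at 15 times, NDRG1 at 7 and VEGFA at 1 (1.73-fold lower at 18 h), while CA9 at 15 h (1.69-fold higher) and HIF1A ILMN_16330 at 45 h (1.68-fold lower) were just short of it. ADM was the 1 member past 1.7-fold at all 15 later times, against 0.669% of all rows.

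**Figure D4:**
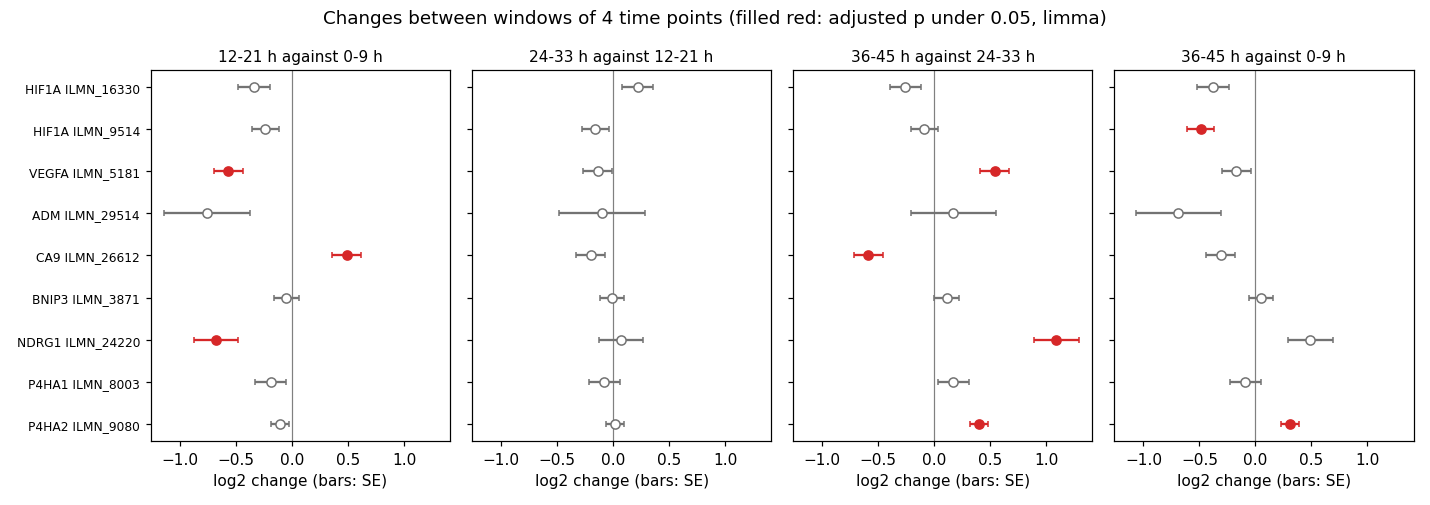
Log2 change between windows of 4 time points for the 9 tested rows (points, with bars of 1 SE from the limma fit), filled red where the adjusted p was under 0.05. Calls are seen for VEGFA, CA9 and NDRG1 at 12-21 h, for none of the 9 at 24-33 h, and for VEGFA, CA9, NDRG1 and P4HA2 at 36-45 h against 24-33 h.

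The members called at both the second and the fourth window fell in opposite patterns. NDRG1 and VEGFA were lower at 12-21 h than at 0-9 h and higher at 36-45 h than at 24-33 h, a pattern of 930 of all tested rows (7.78%). CA9 was higher and then lower, a pattern of 987 rows (8.25%). The rows most correlated with the members over the 16 arrays are given as a description, since all rows share the same arrays. Among the highest Pearson r with NDRG1 were SDCBP2 (0.962) and GABBR1 (0.954). With VEGFA they were COMMD7 (0.919), SPATA20 (0.915) and PLA2G4B (0.914), a phospholipase. With CA9 they were TPM3 (0.934), a tropomyosin, TTF2 (0.934) and C9orf76 (0.923). With ADM they were FAM46A (0.906), HES1 (0.904), a repressor downstream of Notch, and ZFP36L1 (0.899), an RNA decay factor, but without the 0 h array these were 0.226, 0.301 and 0.392. With HIF1A ILMN_16330 they were NDUFB3 (0.924), a subunit of respiratory complex I, SHFM1 (0.895) and UNC13D (0.852).

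The other genes of the hypoxia pathway were counted in 7 lists with 77 tested rows, of which 46 (59.7%) passed the spline test. From 0-9 h to 36-45 h 14 rows rose and 15 fell, 37.7% together beside the 31.2% of all rows. The 29 calls were 19 with the 8 compared arrays alone (20.7% of all rows) and 13, of which 12 were among the 29, when the step between 21 h and 24 h was left out of the contrast (13.5% of all rows). Of the genes named from these lists below, CITED2, ARNT, TFRC, ALDOA, BNIP3L, FAM162A, P4HB, PLOD3, KDM4B and ANKRD37 were not called without that step, and ARNT, ALDOA, FAM162A and PLOD3 were not called with the 8 arrays alone. Over the settings of background correction and scaling the smallest changes of ARNT, KDM3A and KDM4B were 0.27, 0.32 and 0.28, and that of STC1 was -0.71. The median log2 change of the 77 rows was -0.01, and that of all tested rows was -0.02.

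Among 14 rows for oxygen sensing and the HIF complex, 3 rose and 0 fell from the first to the last window (median 0.01). CITED2, which competes with HIF for the coactivator p300, rose by 1.99 (SE 0.52, adjusted p = 0.0068). Its log2 values varied widely within 0-9 h (SD 1.62) and little within 36-45 h (SD 0.11). EPAS1, the HIF-2 alpha subunit, rose by 0.67 (adjusted p = 0.00026). ARNT, the partner of the alpha subunits, rose by 0.66 (adjusted p = 0.013) and was above background on 9 of 16 arrays. The HIF1A row ILMN_9514 fell over the same interval.

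Among 12 rows for secreted factors and their receptors, 1 rose and 3 fell (median -0.21). Row ILMN_16360 of NRP1, a co-receptor for VEGFA, fell by 1.45 (adjusted p = 1.5e-07), while its other row, ILMN_17483, gave -0.29 (adjusted p = 0.22). STC1, a secreted glycoprotein hormone, fell by 1.09 (adjusted p = 9.1e-06), and TFRC, the transferrin receptor, fell by 0.66 (adjusted p = 0.0023).

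Among 14 rows for acid-base transport and glucose use, the list that goes with CA9, 2 rose and 5 fell from the first to the last window (median -0.09). From 0-9 h to 12-21 h 6 rose and 1 fell (median 0.20), beside 15.1% higher and 14.4% lower over all rows. From 24-33 h to 36-45 h 1 rose and 4 fell (median -0.22), beside 19.3% higher and 18.7% lower, or 14.4% and 24.5% under median scaling, where 0 of the 14 rose and 6 fell. From the first to the last window SLC2A1, the glucose transporter GLUT1, fell by 0.92 (adjusted p = 1.8e-05). ALDOA, a glycolytic aldolase, fell by 0.43 (adjusted p = 0.011) and GBE1, the glycogen branching enzyme, rose by 0.42 (adjusted p = 0.00074). SLC2A1 was the 1 row that fell from 0-9 h to 12-21 h (-1.21, adjusted p = 2.1e-06). From 24-33 h to 36-45 h it gave 0.26 (adjusted p = 0.091). Under median scaling the list had 2 rises and 3 falls from the first to the last window.

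The list of cell death and mitophagy, 7 rows, had 2 rises and 2 falls (median -0.06). BNIP1 fell by 0.69 (adjusted p = 7e-04), and BNIP3L, the close relative of BNIP3, rose by 0.40 (adjusted p = 0.0021), as did FAM162A by 0.30 (adjusted p = 0.047), which was not called without background correction (adjusted p = 0.054) or with cyclic loess (adjusted p = 0.06). The collagen list, 9 rows, had 2 rises and 3 falls (median -0.13), with the lysyl hydroxylases PLOD1 (0.45, adjusted p = 4.4e-05) and PLOD3 (-0.35, adjusted p = 0.033) in opposite directions. P4HB, the shared second subunit of the P4HA1 and P4HA2 enzymes, fell by 0.32 (adjusted p = 0.0014). The list of transcription and chromatin, 14 rows, had 3 rises and 1 fall (median 0.08), with the histone demethylases KDM3A and KDM4B each up by 0.67 (adjusted p = 0.0029 and 0.0091) and ANKRD37 down by 0.45 (adjusted p = 0.02). The remaining 7 rows had 1 rise, ANG or angiogenin (1.00, adjusted p = 2.5e-05), and 1 fall. From 0-9 h to 12-21 h 5 of these 7 fell and 0 rose (median -0.57), beside 14.4% lower over all rows, and 3 fell under median scaling (median -0.47) beside 8.61%. Under median scaling the falls from the first to the last window were 1 for cell death, 1 for collagen, 0 for transcription and 0 for the remaining rows, with PLOD3 and ANKRD37 among those lost.

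**Figure D5:**
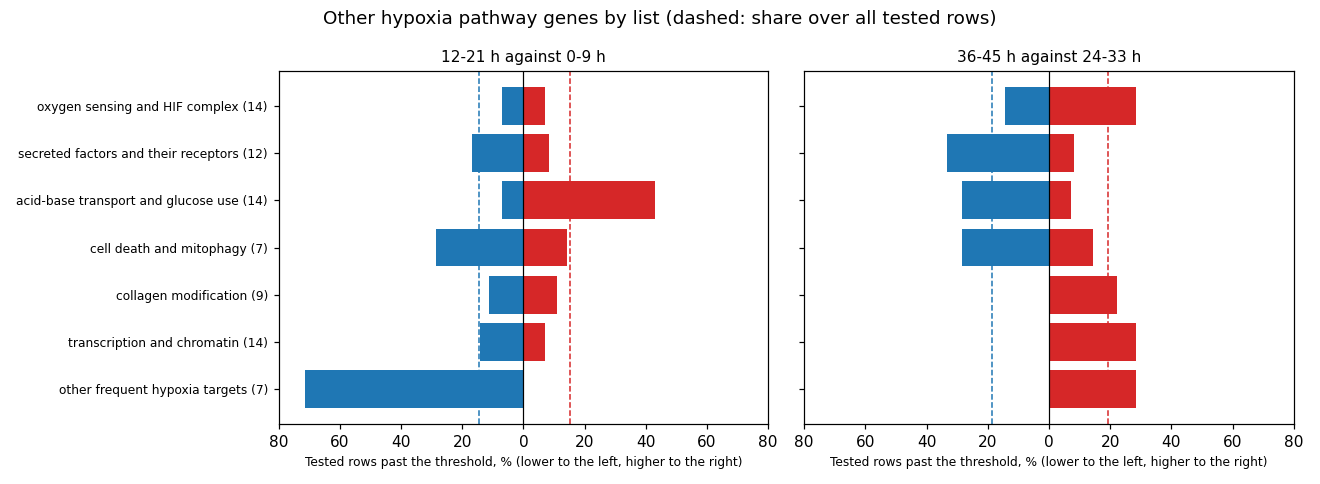
Share of tested rows in each list of other hypoxia pathway genes (number of rows in brackets) that were called lower (blue, to the left) or higher (red, to the right) between windows, with the shares over all 11957 rows dashed. Acid-base transport and glucose use had 6 of 14 rows higher at 12-21 h and 4 of 14 lower at 36-45 h, and the other frequent targets had 5 of 7 lower at 12-21 h.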

How the data were processed

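The authors deposited non-normalized intensity values with a detection p-value for each row and array, measured against negative control beads, and their methods name quantile normalization. The summary software is not given in the sources used here. The negative control level was inferred from 19092 rows whose detection p-values were whole multiples of 1 in 708 (within 0.001) and so stand for 1 probe. Intensities were then corrected by normexp (offset 16, which compresses dim rows), quantile normalized and log2 transformed (R 4.3.3, limma 3.58.1). Rows detected (p under 0.05) on 3 or more of the 16 arrays were tested, 11957 in all. The tests were limma's moderated F for a natural spline of time with 3 df and moderated contrasts in a fit of 4 windows, each with 12 residual df, and in a fit of 8 pairs of neighbouring time points, with 8. Precision is limited by the number of arrays, 1 per time point. The code was tested on simulated data.

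Members and lists were chosen with earlier results of these data known. Named were all member rows, the 3 genes of each list with the largest change from 0-9 h to 36-45 h among rows past both tests (fewer where fewer passed), and the 3 rows most correlated with each member that passed the spline test and ranged at least 1.7-fold. Genes outside this rule are marked. A few genes that the rule or the marker lists would name are not reported here. The alternatives were another background correction, offset, scaling, detection filter, prior variance, curve or contrast, and leaving out each array. Figures were drawn with matplotlib 3.10.9.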

Additional observations from a re-analysis of the deposited data

Results flagged for a closer look

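In 4 of 44 window groups of the member rows, 1 time point stood apart from the other 3 by Dixon's ratio (the gap over the range, above its critical value). About 1 in 20 groups does so by chance, and consecutive time points are not replicates. HIF1A ILMN_16330 at 45 h was 7.19 against a nearest value of 7.63 (ratio 0.932). P4HA1 ILMN_8003 at 45 h was 9.79 against 9.35 (ratio 0.853). BNIP3 at 24 h was 11.52 against 11.22 (ratio 0.948). P4HA2 at 0 h was 11.34 against 11.41 (ratio 0.864).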

How the results depend on the processing

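The changes of CA9 and VEGFA from 0-9 h to 12-21 h and from 24-33 h to 36-45 h, and the late rise of NDRG1, were called under all 23 other settings. Of 416 results of single rows under settings other than a left-out array, 392 kept their direction and side of the threshold, 16 lost a call and 8 gained one. With an array left out, 826 of 850 did so, 10 lost a call, 13 gained one and 1 reversed: ADM from 0-3 h to 6-9 h, -0.68 with all arrays, was 0.74 (adjusted p = 0.004) without the 0 h array and -2.11 without the 3 h array, the range over left-out arrays. Of 1287 pairs of row and setting, 21 that were called under neither and differed in sign are not counted. Members past the spline test numbered 7, and 1 with a straight line in time. With a spline of 5 df HIF1A ILMN_16330 (adjusted p = 0.081) and P4HA2 (adjusted p = 0.065) did not pass. The 2 members called from 0-9 h to 36-45 h were 0 without the step from 12-21 h to 24-33 h. The 1 member called from 0-3 h to 6-9 h (NDRG1) was 2 under median scaling, with BNIP3, 0 with no intensity trend, and 1 to 2 with an array left out (2 without the 0 h, 3 h, 24 h or 27 h array). Leaving out an array gave 5 to 8 members past the spline test, 2 to 3 from 0-9 h to 36-45 h and 2 to 4 from 0-9 h to 12-21 h. Of the other pathway rows, the 46 past the spline test were 10 with a straight line, and the 29 called from 0-9 h to 36-45 h were 19 with the 8 compared arrays alone and 13 without the step. These alternatives for the pathway rows were chosen after seeing the data. The causes were not tested, apart from what follows by construction: fewer arrays where some are left out, and a larger SE without the step. Without the step the change of P4HA2 was 0.29 in place of 0.31, and that of HIF1A ILMN_9514 was -0.32 in place of -0.49. No paired analysis was possible because each group holds 1 array with the number 1. A chip as a block was not run, since neither the labels nor the file name one. Signal over background limits HIF1A, VEGFA and CA9 most, and EGLN3 entirely.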

Other observations

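From 0-3 h to 6-9 h 9 of the 77 other pathway rows rose and 9 fell, near the share over all rows of 13.2% higher and 11.5% lower. The genes named here were chosen after their values were seen. HK2, the hexokinase that begins glycolysis, rose by 2.14 (SE 0.21, adjusted p = 3.3e-06), and its difference from 0-9 h to 36-45 h was -0.74 (SE 0.39, adjusted p = 0.16). ANGPTL4, a secreted inhibitor of lipoprotein lipase, rose by 2.05 (SE 0.43, adjusted p = 0.0021). It was above background on 15 of 16 arrays but on only 1 array at 0-3 h, so the size of its rise is uncertain. EGLN1, the main oxygen-sensing prolyl hydroxylase, rose by 1.13 (SE 0.19, adjusted p = 0.00037). The repressors BHLHE40 and BHLHE41 fell by 1.7 (SE 0.26, adjusted p = 0.00015) and 1.66 (SE 0.33, adjusted p = 0.0013). BHLHE41 was above background on 14 of 16 arrays and on only 1 array at 6-9 h, so the size of its fall is uncertain. Over the settings of background correction and scaling these changes stayed called, and the smallest were 1.11 for HK2, 1.12 for ANGPTL4, 0.59 for EGLN1, -1.58 for BHLHE40 and -0.77 for BHLHE41. Each side of this contrast holds a pair of time points, with the untreated 0 h array in the first. Whether these changes hold with an array left out was not tested. NDRG1 was the 1 member row called over the same interval.

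At the late step, in genes also chosen after their values were seen, ANG rose by 2.50 (SE 0.13, adjusted p = 2.1e-09) from 24-33 h to 36-45 h, after a change of -1.41 (SE 0.13, adjusted p = 1.5e-06) from 0-9 h to 12-21 h. BNIP3L had the same order, with -0.81 (adjusted p = 6.6e-06) and then 0.88 (adjusted p = 1.1e-06), and so did RRAGD, a GTPase of nutrient sensing, with -0.76 (adjusted p = 5.6e-05) and 0.86 (adjusted p = 7e-06). LDHA, the lactate dehydrogenase subunit, went the other way, with 0.64 (adjusted p = 1.9e-06) and then -0.29 (adjusted p = 0.0012).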
